A study of Mus musculus with 6 samples.

Results

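The genes described here are 9 complement genes of mouse muscle, taken by symbol from a count table of 53084 genes: C1qa, C1qb and C1qc, C1ra, C4b, C2, C3, Cfb and Serping1. They were listed by name, with no measured value in the rule, but with earlier results of these data known. Messenger RNA was sequenced from the muscle of 6 male C57BL/6 mice at 6 weeks of age, 1 library per mouse, and all 9 genes were in the table. The 3 wild-type mice (Tarsl2+/+, mice 583, 584 and 595) were compared with 3 knockout mice (Tarsl2-/-, mice 588, 589 and 591), in which a fragment around exon 3 of Tarsl2, a threonyl-tRNA synthetase-like gene, had been deleted with CRISPR/Cas9 in every tissue of the animal. Housing is given as specific-pathogen-free with standard chow for both genotypes, but the study's text does not describe it. No challenge of these mice with a pathogen or an injury is described there either. The number of founder lines, and which muscle was taken, are not given in the sources used here. Mouse 589 is titled KOT1-589, unlike the other Tarsl2-/- mice (KO1-588 and KO1-591), and the study's text does not explain the difference.

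The libraries held 16176591 to 20123767 counts. Tarsl2 was read 456, 605 and 464 times in the Tarsl2+/+ libraries and 40, 30 and 37 times in the Tarsl2-/- libraries (log2 fold change -3.81, standard error 0.16, adjusted p = 6.45e-07), in the direction that the labels give. The submitted extraction protocol speaks of retinas, whereas the other labels say muscle. Of 10 retina markers none passed the count filter and the highest count was 7, while the 11 skeletal muscle markers summed to between 122397 and 142090 CPM (read counts scaled for library size) in each library.

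Complement is a cascade of plasma and tissue proteins that tags microbes, immune complexes and dying cells for removal. In the classical pathway C1q binds the target, the proteases C1r and C1s cleave C4 and C2, and the resulting convertase cleaves C3. The alternative pathway reaches C3 through factor B and factor D, and both routes can go on to the membrane attack complex. Most plasma complement is made by the liver, but C1q is made chiefly by macrophages and related myeloid cells, and other components are made locally by fibroblasts, adipocytes and endothelium. In whole muscle, fewer cells of a type and less RNA per cell cannot be told apart.

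Promoter sequence is shown for C1qb, as a member of the C1q group that fell, and for C3, the tested gene whose value differed most between Tarsl2-/- mice. Both are the 250 bases before the annotated RefSeq start on GRCm38.p6, read along the gene, and neither window overlapped an annotated exon. Of the 9 genes, 4 were in the promoter table (C1qb, C1qc, C1ra and C3). Capitals mark the motif matches.
C1qb, chr4:136886201-136886450, minus strand: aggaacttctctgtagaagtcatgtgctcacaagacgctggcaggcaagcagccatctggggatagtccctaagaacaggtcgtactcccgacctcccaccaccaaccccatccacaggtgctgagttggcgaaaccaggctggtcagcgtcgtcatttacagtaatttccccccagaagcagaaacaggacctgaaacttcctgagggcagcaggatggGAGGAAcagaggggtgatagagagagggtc
C3, chr17:57228137-57228386, minus strand: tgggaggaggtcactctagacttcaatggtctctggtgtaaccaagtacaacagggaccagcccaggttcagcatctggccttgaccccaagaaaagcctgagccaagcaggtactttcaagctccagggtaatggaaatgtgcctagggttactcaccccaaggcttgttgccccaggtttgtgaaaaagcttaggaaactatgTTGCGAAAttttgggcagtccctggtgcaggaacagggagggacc
The capitals in C1qb are a PU.1 box (GAGGAA), whose first base lay at position -30 from the start. PU.1, the product of Spi1, is a transcription factor of myeloid cells. The capitals in C3 are a match to the C/EBP pattern TTGCNNAA, whose first base lay at position -45. C/EBP beta and delta are acute phase factors known to act on C3. The same letters were common elsewhere: of 32851 promoter windows of this length, 23.3% held the PU.1 box and 9.56% the C/EBP pattern on either strand. The gamma-interferon element TTCNNNGAA (7.02% of windows), the core of the interferon-stimulated response element (2.98%) and the Maf site TGCTGAC (3.81%) had no match in either window. Each match is a description of letters, with no measurement of binding in these data.

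Of the 8 complement genes with enough counts to be tested, 4 fell in Tarsl2-/- muscle and none rose. These were the genes of all C1q chains, C1qa, C1qb and C1qc, to between 64.6% and 66.6% of the Tarsl2+/+ mean, and C4b, the gene of the fourth component. Over all 15075 tested genes 1.37% were called lower and 0.896% higher, at an adjusted p under 0.05 in edgeR's quasi-likelihood test. The median log2 fold change of the 8 genes was -0.46, against 0.00253 for all tested genes. In 5 of the 8 (the same 4 and Serping1) every Tarsl2-/- library lay below every Tarsl2+/+ library, which was the case for 12.0% of all tested genes. In none did every Tarsl2-/- library lie above, compared with 12.6% of all tested genes. Adjusted p-values are from edgeR over all tested genes throughout, and standard errors and intervals are on the log2 scale.

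**Figure D1:**
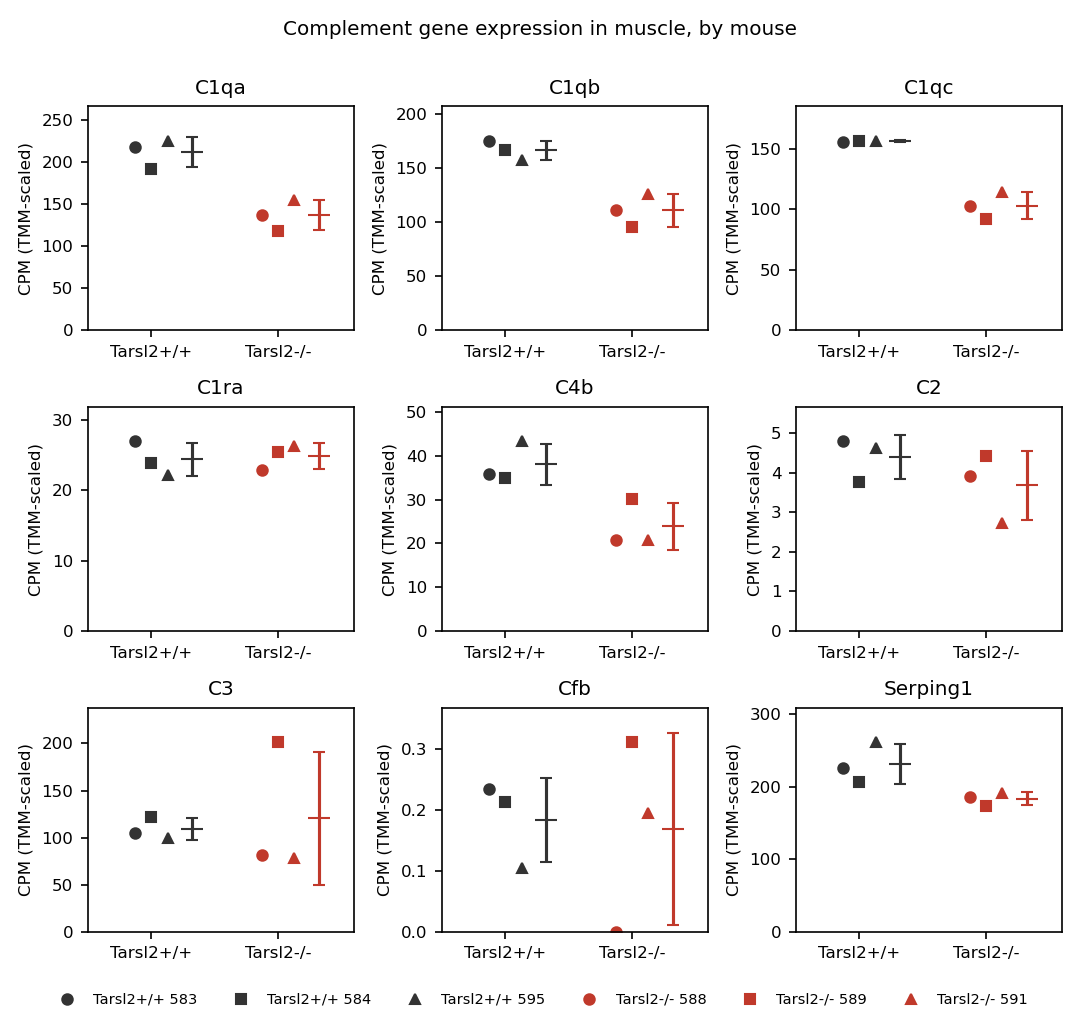
CPM of each complement gene (vertical axes, linear, starting at 0) in the 3 Tarsl2+/+ mice (black) and the 3 Tarsl2-/- mice (red), 1 point per library, with the group mean and SD beside the points. The groups are separate for C1qa, C1qb, C1qc, C4b and Serping1, and they overlap for C1ra, C2, C3 and Cfb, where mouse 589 has the highest C3 value of all at 202 CPM.

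C1q, the recognition molecule of the classical pathway, is built from A, B and C chains with a collagen-like stalk and a globular head. The chains are encoded side by side on the minus strand of chromosome 4: C1qa (ENSMUSG00000036887) at chr4:136895917-136898803, C1qc (ENSMUSG00000036896) at chr4:136889804-136893065 and C1qb (ENSMUSG00000036905) at chr4:136880129-136886187. Together they span 18675 bases, with gaps of 3616 and 2851 bases between neighbours. C1qa was measured at 218, 192 and 226 CPM in Tarsl2+/+ mice 583, 584 and 595 and at 137, 119 and 155 CPM in Tarsl2-/- mice 588, 589 and 591. The lowest Tarsl2+/+ value was above the highest Tarsl2-/- value. C1qa thus fell from 212 ± 17.7 to 137 ± 18.0 CPM (SD, n = 3 each), or 64.6% of the Tarsl2+/+ mean, with a log2 fold change of -0.63 (95% interval -0.87 to -0.39, adjusted p = 0.0174).

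C1qb was measured at 175, 167 and 158 CPM in the Tarsl2+/+ mice and at 111, 95.9 and 126 CPM in the Tarsl2-/- mice, again without overlap. It fell to 66.6% of the Tarsl2+/+ mean (log2 fold change -0.59, 95% interval -0.82 to -0.35, adjusted p = 0.019). C1qc had the narrowest spread of the chains, at 155, 157 and 156 CPM in Tarsl2+/+ muscle, and stood at 103, 91.9 and 114 CPM in Tarsl2-/- muscle. It fell to 66.0% of the Tarsl2+/+ mean (log2 fold change -0.60, 95% interval -0.81 to -0.39, adjusted p = 0.0111). Among the Tarsl2-/- mice all chains were lowest in mouse 589 and highest in mouse 591.

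The proportions of the chains within a library overlapped between the genotypes. The ratio of C1qa to C1qb counts was 1.28 ± 0.143 in Tarsl2+/+ and 1.24 ± 0.00572 in Tarsl2-/- muscle (exact permutation test, two-sided, p = 0.7), and C1qc to C1qb was 0.938 ± 0.0532 and 0.930 ± 0.0270 (exact permutation test, p = 0.9). With 3 mice against 3 the smallest p this test can give is 0.1, so these values do not show that the ratios were equal. The chains share no 75-base stretch, so a read of that length could be placed on 1 chain.

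Of the proteases that C1q binds, C1r and C1s, neither gene passed the test. C1ra (ENSMUSG00000055172, chr6:124512405-124523443, plus strand), the gene of the first of these, was measured at 27.0, 24.0 and 22.3 CPM in Tarsl2+/+ muscle and at 22.9, 25.5 and 26.3 CPM in Tarsl2-/- muscle. The groups overlapped throughout, and the log2 fold change was 0.03 (95% interval -0.20 to 0.26, adjusted p = 0.916). C1s1, the partner protease, stood at 103, 84.5 and 98.9 against 82.6, 84.4 and 89.1 CPM (log2 fold change -0.16, 95% interval -0.37 to 0.05, adjusted p = 0.375). The number of C1q counts for each C1ra count was 20.3, 21.5 and 24.2 in the Tarsl2+/+ libraries and 15.4, 12.0 and 15.0 in the Tarsl2-/- libraries. These did not overlap, and their means of 22.0 ± 2.01 and 14.1 ± 1.84 gave p = 0.1 in the two-sided exact permutation test, the smallest it can give. The same held for C1q over C1s1, at 5.63 ± 0.410 against 4.10 ± 0.418 (exact permutation p = 0.1), whereas C1ra over C1s1 overlapped between the genotypes (exact permutation p = 0.2).

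C4b (ENSMUSG00000073418, chr17:34728380-34743882, minus strand) encodes a protein whose larger fragment binds covalently to the target. It was measured at 35.8, 34.9 and 43.3 CPM in Tarsl2+/+ mice 583, 584 and 595. In Tarsl2-/- mice 588, 589 and 591 it stood at 20.9, 30.1 and 20.7 CPM, so that mouse 589 lay nearest to the Tarsl2+/+ group without reaching it. C4b fell to 62.8% of the Tarsl2+/+ mean (38.0 ± 4.61 against 23.9 ± 5.35 CPM, log2 fold change -0.67, standard error 0.15, adjusted p = 0.0399). Of the 75-base stretches in C4b exons 22.7% also occur in its paralog C4a, which had at most 4 counts in any library.

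C2 (ENSMUSG00000024371, chr17:34862604-34898265, minus strand), the protease that joins C4b in the classical C3 convertase, was read 56 to 88 times per library. Its values of 4.79, 3.77 and 4.62 CPM in Tarsl2+/+ muscle and 3.90, 4.43 and 2.72 CPM in Tarsl2-/- muscle overlapped (log2 fold change -0.26, 95% interval -0.73 to 0.20, adjusted p = 0.537). The interval includes the fold changes of the C1q genes, so a decrease of that size could not be told from none at these counts. C2 ends 85 bases from Cfb (ENSMUSG00000090231, chr17:34856374-34862518, minus strand), which encodes factor B, the corresponding protease of the alternative pathway. Cfb had 4, 4 and 2 counts in Tarsl2+/+ and 0, 5 and 4 counts in Tarsl2-/- muscle, at or near the floor of 3 counts (0.149 to 0.185 CPM), and it failed the filter and was not tested. Both genes share exon sequence with the annotated read-through gene Gm20547 (37.0% of the 75-base stretches of C2 and 69.9% of those of Cfb), which was listed with 0 counts in every library. How reads in shared sequence were counted is not given in the sources used here, so low counts of C2 and Cfb need not mean low expression. Zbtb12 lies inside C2 on the opposite strand, and whether the counting used strand is not given in the sources used here.

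C3 (ENSMUSG00000024164, chr17:57203970-57228136, minus strand), the component on which all pathways converge, was measured at 105, 122 and 99.2 CPM in Tarsl2+/+ muscle. In Tarsl2-/- muscle it stood at 81.5 CPM in mouse 588, 202 CPM in mouse 589 and 78.1 CPM in mouse 591. Mouse 589 was therefore above, and the other Tarsl2-/- mice below, every Tarsl2+/+ mouse. The log2 fold change over all mice was 0.15 (95% interval -0.49 to 0.79, adjusted p = 0.834), and it was -0.44 without mouse 589 (adjusted p = 0.106).

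Cfd and 7 of 8 adipocyte markers were also highest in mouse 589. Cfd, which encodes factor D (adipsin), a protease abundant in fat, stood at 924, 1349 and 861 CPM in Tarsl2+/+ muscle and at 903, 2722 and 946 CPM in Tarsl2-/- muscle (log2 fold change 0.54, 95% interval -0.24 to 1.33, adjusted p = 0.432). The 8 adipocyte markers summed to 2213, 2849 and 1897 CPM in the Tarsl2+/+ libraries and to 2324, 4423 and 2665 CPM in the Tarsl2-/- libraries. None of these markers passed edgeR's test, DESeq2 called 0, and none was at 0. At an unadjusted p under 0.05 in edgeR 3 of them were higher and 1 lower, beside 9.57% and 10.2% of all tested genes. The exception was Lep, the gene of the fat hormone leptin, at 8.13, 23.5 and 16.8 CPM in Tarsl2+/+ and 7.41, 10.8 and 6.08 CPM in Tarsl2-/- muscle (log2 fold change -1.01, adjusted p = 0.116), named after its values were seen. Among the Tarsl2+/+ mice, mouse 584 was the highest for C3, for Cfd and for the adipocyte sum. C3 counts per Adipoq count, the latter the gene of the fat hormone adiponectin, ran from 0.626 to 0.976 and overlapped between the genotypes (exact permutation test, p = 0.4). C3 per Cfd count was 0.114, 0.0903 and 0.115 in the Tarsl2+/+ and 0.0902, 0.0741 and 0.0826 in the Tarsl2-/- libraries, which did not overlap (exact permutation p = 0.1). The part of fat tissue in the C3 values was not tested.

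Serping1 (ENSMUSG00000023224, chr2:84765387-84775444, minus strand) encodes the C1 inhibitor, which removes C1r and C1s from the C1 complex. It was measured at 225, 206 and 262 CPM in Tarsl2+/+ and at 186, 173 and 191 CPM in Tarsl2-/- muscle. The groups did not overlap, and the Tarsl2-/- mean was 79.2% of the Tarsl2+/+ mean, but the log2 fold change of -0.34 (95% interval -0.56 to -0.11) had an adjusted p of 0.105. DESeq2 placed it past the threshold with a log2 fold change of -0.33 (DESeq2 adjusted p = 0.0427), in a test that called 2.45% of genes lower and 1.98% higher. C1q counts per Serping1 count were 2.33 ± 0.236 and 1.91 ± 0.150 and overlapped (exact permutation test, p = 0.2).

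Per length of exon, the order of levels in muscle was led by C1qa. On a TPM scale (counts per exon base, scaled to the same total in each library) computed from the union of exons, its median over the 6 libraries was 307, followed by C1qb at 228, Serping1 at 157 and C1qc at 122. C3 had a median of 33.9, C1ra of 14.9, C4b of 10.2, C2 of 1.87 and Cfb of 0.133. With the longest transcript as the length the first 4 places were the same, but the ratio of C1qc to C1qb moved: C1qc per length was 0.529 of C1qb in Tarsl2+/+ muscle with the union of exons (1931 bases) and 0.849 with the longest transcript (1203 bases). C1qa was above C1qb, and C1qb above Serping1, in each of the 6 libraries on the union scale. With the longest transcript the medians of C1qb and Serping1 were 178 and 162, and Serping1 was above C1qb in mice 595, 588 and 589. C1ra and C4b could not be placed in order beyond their spread, since in mouse 595 C4b (12.6) was slightly above C1ra (12.3).

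**Figure D2:**
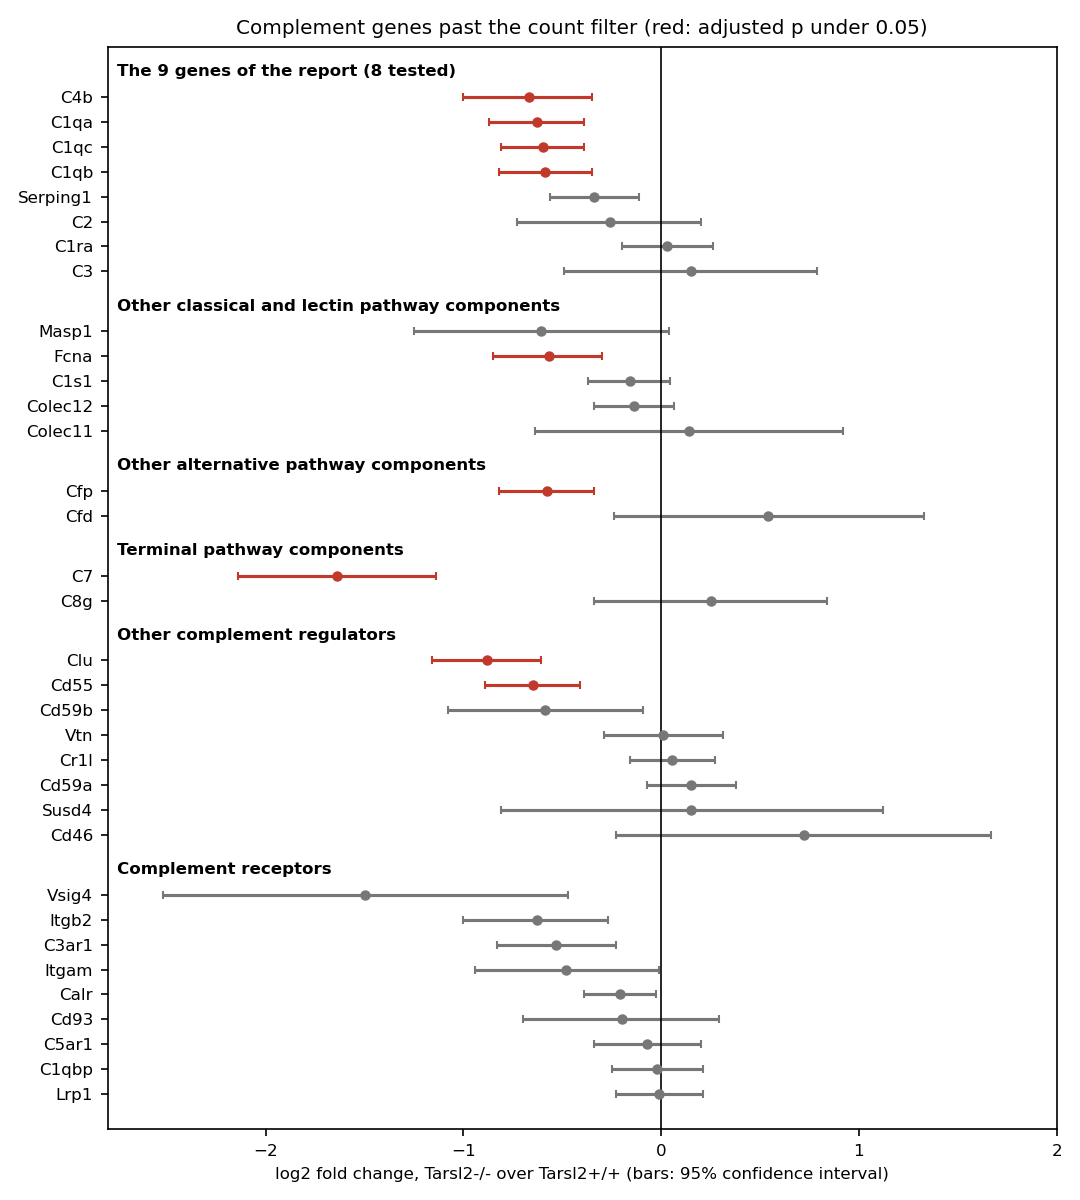
Log2 fold change of Tarsl2-/- over Tarsl2+/+ (horizontal axis) with 95% intervals for the 8 tested genes and the tested genes of the other complement lists (all but 1), grouped by role. Red points have an adjusted p under 0.05; all 9 of them lie below 0, and the largest decrease among them is that of C7 at -1.64.

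Of 49 other complement genes in 5 lists, 27 were tested, 5 fell and none rose, with a median log2 fold change of -0.20. Of all tested genes 1.37% were called lower and 0.896% higher. Without the count filter 8 of the other complement genes were called lower and 1, Cfd, higher. That fit gave no gene a variance of its own, and Cfd was high in mouse 589 alone of the Tarsl2-/- mice. In 11 of the 27 every Tarsl2-/- library lay below every Tarsl2+/+ library and in 1 every one lay above. The shares over all tested genes were 12.0% below and 12.6% above. In the classical and lectin list (5 of 13 tested, 1 lower) the gene that fell was Fcna, a ficolin of macrophages that binds sugars on microbes, at 47.2, 38.5 and 38.7 CPM in Tarsl2+/+ and 24.0, 27.0 and 32.5 CPM in Tarsl2-/- muscle (log2 fold change -0.57, adjusted p = 0.0408). In the alternative pathway list (2 of 2 tested, 1 lower) Cfp fell, the gene of properdin, which stabilises the alternative C3 convertase and is made by leukocytes. It went from 41.4, 39.0 and 41.0 CPM to 23.1, 26.9 and 31.0 CPM (log2 fold change -0.58, adjusted p = 0.0214).

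In the terminal list (2 of 7 tested, 1 lower) C7, a subunit of the membrane attack complex, stood at 6.14, 7.33 and 10.9 CPM in Tarsl2+/+ muscle and 2.96, 2.495 and 2.38 CPM in Tarsl2-/- muscle. This log2 decrease (-1.64, adjusted p = 0.00553) was the largest in size among the tested complement genes. Among the regulators (9 of 15 tested, 2 lower) Clu, the gene of clusterin, an inhibitor of membrane attack complex assembly, fell by 0.88 on the log2 scale (adjusted p = 0.00594). Its values were 38.5, 30.1 and 37.2 CPM against 20.8, 20.3 and 16.3 CPM. Cd55, the gene of decay-accelerating factor, which dissociates C3 convertases at the cell surface, stood at 80.0, 77.8 and 86.5 CPM in Tarsl2+/+ and 58.2, 43.4 and 54.4 CPM in Tarsl2-/- muscle and fell by 0.65 (adjusted p = 0.0161).

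None of the 9 tested receptor genes of 12 listed passed the test, and all 9 fold changes were negative. Of all 15075 tested genes 7472 had negative fold changes. At an unadjusted p under 0.05 in edgeR 5 of the receptor genes were lower and none higher, beside 10.2% of all tested genes lower. DESeq2 called 0 of the 9. The most abundant of them, Calr, C1qbp and Lrp1, had log2 fold changes of -0.21, -0.02 and -0.01. Named after their values were seen, C3ar1, the receptor for the C3a fragment, had -0.53 (adjusted p = 0.0704) and Itgb2, the beta chain of complement receptors on leukocytes, had -0.63 (adjusted p = 0.0727).

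Transcription factors and cytokine signalling genes that act on complement genes were counted as a further list, of which 19 of 19 were tested, 1 fell and none rose (median log2 fold change -0.17). The shares called over all tested genes were 1.37% lower and 0.896% higher. Irf8, an interferon-responsive factor of myeloid cells, stood at 11.7, 9.24 and 10.6 CPM in Tarsl2+/+ and 7.30, 5.86 and 7.19 CPM in Tarsl2-/- muscle (log2 fold change -0.62, adjusted p = 0.0491). Spi1, named here for the PU.1 box shown above and after its values were seen, stood at 24.6, 26.1 and 36.1 against 19.2, 20.6 and 21.2 CPM (log2 fold change -0.51, adjusted p = 0.0798). The C/EBP genes Cebpb and Cebpd, the most abundant of the list with Ifngr2, had log2 fold changes of 0.32 and 0.35 with adjusted p-values of 0.0918 and 0.154.

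Markers of macrophages moved with the C1q genes. Of 16 macrophage markers all were tested and all had negative fold changes, 6 fell, none rose and none was at 0. Over all 15075 tested genes 1.37% were called lower, 0.896% were called higher and 7472 had negative fold changes. The 16 markers summed to 1293 to 1506 CPM in Tarsl2+/+ and 763 to 940 CPM in Tarsl2-/- muscle. Most of this sum in Tarsl2+/+ was Lyz2, at 945, 823 and 965 CPM, against 476, 436 and 567 CPM in Tarsl2-/- muscle. The median log2 fold change of the 16 markers was -0.55, beside -0.63, -0.59 and -0.60 for the C1q genes. The markers that fell included Cd209f (-1.17, adjusted p = 0.000598), a lectin of resident macrophages, and Lyz2 (-0.89, adjusted p = 0.004), the lysozyme of myeloid cells. The Fc receptor Fcgr3 also fell (-0.66, adjusted p = 0.0113). Mertk (-0.099, adjusted p = 0.831) and Lyve1 (-0.12, adjusted p = 0.477) changed least. The summed C1q level, at 549, 515 and 540 CPM against 351, 306 and 395 CPM, was 1.05 ± 0.0491 and 1.00 ± 0.0615 of the macrophage marker counts without Lyz2 (exact permutation test, p = 0.5). With Lyz2 in the sum the ratio was 0.377 ± 0.0203 in Tarsl2+/+ and 0.416 ± 0.0129 in Tarsl2-/- muscle, without overlap (exact permutation p = 0.1). Relative to Csf1r, the growth factor receptor of macrophages, which itself fell by 0.53 (adjusted p = 0.0167), C1q was 10.6 ± 0.395 and 10.04 ± 0.963 (exact permutation test, p = 0.4). The part of macrophage number in the C1q values was not tested.

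Of 11 dendritic cell and MHC class II genes 10 were tested and 6 fell, beside 1.37% of all tested genes called lower by edgeR. The list summed to 265 to 327 CPM in Tarsl2+/+ against 116 to 150 CPM in Tarsl2-/- muscle. Cd74, the invariant chain, fell by 1.24 and H2-Eb1 by 1.29 on the log2 scale (adjusted p = 0.000464 and 0.00061). The dendritic cell genes of the list were mixed. Cd209a fell (-1.31, adjusted p = 0.034) and stayed past the threshold in 1 of 6 fits with a library left out. Xcr1 had -0.82 (adjusted p = 0.2), Zbtb46 -0.03 (adjusted p = 0.963) and Clec9a 0.04 (adjusted p = 0.973), and Flt3 was not tested. Of 10 neutrophil and 13 lymphocyte markers 5 and 4 were tested and none passed in edgeR. At an unadjusted p under 0.05 in edgeR 3 of each were lower, and DESeq2 called 1 of each lower. Of all tested genes 10.2% were lower at that unadjusted p, and DESeq2 called 2.45% lower. Mouse 583 stood apart in both lists, with 79.5 CPM of neutrophil and 42.7 CPM of lymphocyte markers, against 8.18 and 27.0 and against 5.05 and 11.4 CPM in Tarsl2+/+ mice 584 and 595. C1qa and C4b of mouse 583 lay between the values of those mice, whereas its C1qb was the highest and its C1qc the lowest of the Tarsl2+/+ group. The part of these leukocytes in the complement values was not tested.

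**Figure D3:**
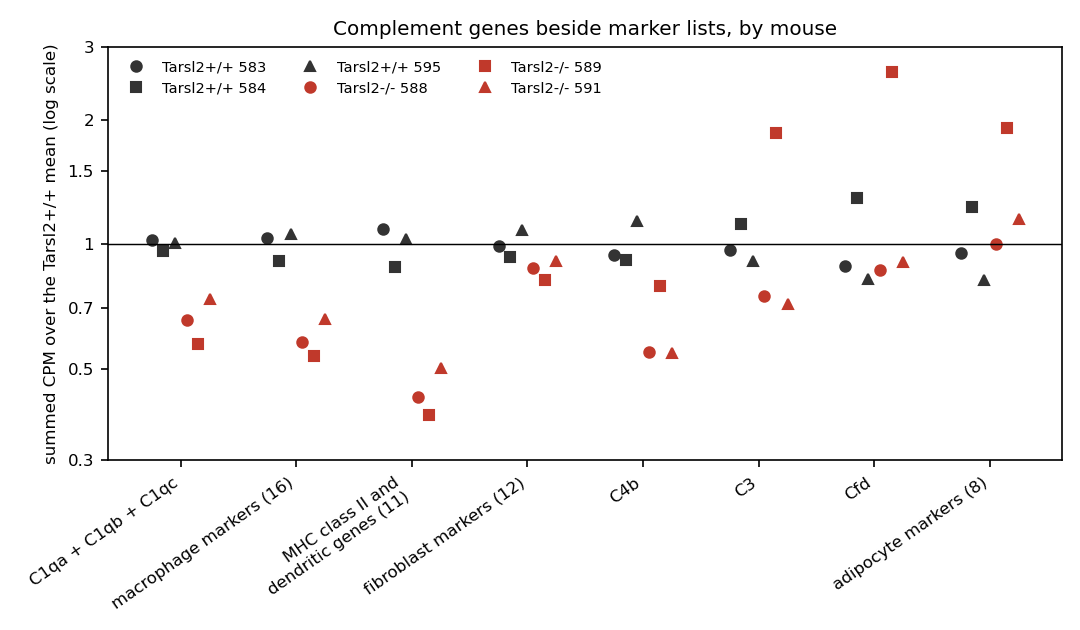
Summed CPM of the C1q genes, of marker lists (number of genes in brackets) and of C4b, C3 and Cfd in each library, divided by the mean of the 3 Tarsl2+/+ libraries (vertical axis, log scale). The Tarsl2-/- points of C1q, the macrophage markers and the MHC class II list lie below all Tarsl2+/+ points, while Tarsl2-/- mouse 589 (red squares) stands highest for C3, Cfd and the adipocyte markers.

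Of 12 fibroblast markers none passed edgeR's test, 4 were lower at an unadjusted p under 0.05 and DESeq2 called 3 lower. Of all tested genes 10.2% were lower at that unadjusted p, and DESeq2 called 2.45% lower. The fibroblast sum was 12886 to 14972 CPM in Tarsl2+/+ and 11341 to 12595 CPM in Tarsl2-/- muscle. C4b relative to this sum overlapped between the genotypes (exact permutation test, p = 0.2), with mouse 589 inside the Tarsl2+/+ range. Of 9 endothelial markers 1 fell, Cdh5, the gene of VE-cadherin (log2 fold change -0.64, adjusted p = 0.00929). The edgeR shares called over all tested genes were 1.37% lower and 0.896% higher. Of 11 skeletal muscle markers 10 were tested, 8 had positive fold changes, 2 rose and none fell. Those that rose were Ckm (0.49, adjusted p = 0.0433) and Myh1 (0.59, adjusted p = 0.015). Ckm stayed past the threshold in 1 and Myh1 in 4 of 6 fits with a library left out. Liver markers (5 of 8 tested, 0 called by edgeR or DESeq2, 0 at an unadjusted p under 0.05) summed to 4.79 to 10.9 CPM in Tarsl2+/+ and 2.99 to 20.1 CPM in Tarsl2-/- muscle, with no count over 190, and were lowest in mouse 589, in which C3 was highest. Erythrocyte markers (7 of 7 tested, 0 called by edgeR, 6 at an unadjusted p under 0.05, 1 called lower by DESeq2) summed to 4757 to 10418 CPM and to 4175 to 4545 CPM, without overlap. Their part in the complement values was not tested.

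The genes whose profile over the 6 libraries was nearest to a complement gene were found among 12449 genes by the root mean square difference of centred log2 CPM. Nearest to the mean of the C1q genes were Mmp23 (0.04), Dck (0.04) and Icam2 (0.06), with log2 fold changes between -0.57 and -0.52. Nearest to C4b were Herc6 (0.08), Kif15 (0.09) and Prcd (0.09), and nearest to Serping1 were Hspb11 (0.02), Tmed3 (0.03) and Tnxb (0.03). For C3, with its high value in mouse 589, the nearest gene, Serpina3c, differed by 0.12, which was the largest such difference among the C1q mean and the 5 genes compared. C1ra was nearest to Epn2, Tmem203 and Sergef (0.02 to 0.03) and C2 to Fmod, Lsm3 and Gm5420 (0.07 to 0.08). With 6 points and many genes, such likeness is a description of these libraries.

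The direction of the 4 calls held with each library left out in turn, but each call was lost without mouse 583. C1qc stayed past the threshold in 5 of 6 such fits and was lost without Tarsl2+/+ mouse 583 (log2 fold change -0.61). C1qb stayed in 3 and was lost without mouse 583 (-0.55), 588 (-0.59) or 589 (-0.49). C1qa stayed in 2 and was lost without mouse 583 (-0.61), 595 (-0.58), 588 (-0.63) or 589 (-0.54). C4b stayed in 2 and was lost without mouse 583 (-0.72), 595 (-0.57), 588 (-0.59) or 591 (-0.58), whereas without mouse 589 it was -0.87 (adjusted p = 0.0103). None of the 9 genes was called without mouse 583, although that fit called 81 genes in all.

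Of the other complement genes, C7 and Clu stayed past the threshold in 6 of 6 such fits. Cd55 was lost without mouse 583 (-0.66) or 595 (-0.60). Fcna and Cfp were each lost without mouse 583, 595, 588 or 589, with log2 fold changes between -0.62 and -0.47 for Fcna and between -0.58 and -0.48 for Cfp. Irf8 was lost in 5 of 6 fits, all but that without mouse 584, with values between -0.68 and -0.53, and with all mice in limma-voom (adjusted p = 0.0549). Of the macrophage genes named above, Cd209f and Lyz2 stayed in 6 of 6, Fcgr3 was lost without mouse 583 (-0.66) or 595 (-0.61), and Csf1r without mouse 583 (-0.50), 588 (-0.48) or 589 (-0.51). Cdh5 was lost without mouse 583 (-0.63).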

How the data were processed

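The authors deposited 1 table of raw read counts per gene, 1 column per mouse, with gene coordinates and lengths. According to the study's methods, poly(A) libraries were sequenced as 150-base read pairs and mapped to mm10 with HISAT2, whereas the submitters' processing notes name Bowtie 0.12.2 and mm8. Of 52489 genes also in GENCODE vM21, 95.25% had identical coordinates there, those of all 9 complement genes included, so the table is on GRCm38. The counting tool, annotation release and strand setting are not given in the sources used here. The study's methods name a stranded kit and the labels another TruSeq RNA kit.

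Groups were taken from the labels. Counts were scaled by TMM factors, genes were filtered with filterByExpr (minimum count 10, minimum total 15), and Tarsl2-/- was compared with Tarsl2+/+ by edgeR 4.0.16 (quasi-likelihood, R 4.3.3) over 15075 genes with Benjamini-Hochberg adjustment at 0.05. The common biological coefficient of variation was 12.1%. CPM are TMM-scaled. Ratios used exact two-sided permutation tests over mice (scipy 1.17.1). Only the ratios among the C1q chains were planned, as description. The other ratios were not planned, those of C1q over macrophage markers, with and without Lyz2, and over Csf1r included. The fitting script was tested on simulated data with known changes. Each library is 1 mouse, so p-values measure the spread between mice. Reads carried no molecular identifiers, and the floor of 3 counts covers counting error only. The levels per length used the union of exons, and shared sequence was counted in stretches of 75 bases of exon.

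The alternatives were DESeq2 1.42.0, limma-voom (limma 3.58.1), RLE and upper quartile factors, no filter beyond 1 count somewhere, a stricter filter of 10 or more counts in all libraries, each library left out, and the longest transcript as length. Leaving out mice 583 and 589 together was added after seeing the data. The 9 genes and all lists were chosen with earlier results of these data known. Named genes were the 9, Tarsl2, every gene of the other complement and regulator lists past the threshold and up to 3 of highest mean CPM per list. From the marker lists up to 4 of smallest p among those past the threshold and up to 3 of highest mean CPM could be named, and for likeness the 3 nearest genes with a mean of at least 1 on the log2 CPM scale. Csf1r, Adipoq, Lep, Spi1, C3ar1, Itgb2 and the genes named for overlapping sequence were added after their values were seen. So were Cd209a, Xcr1, Zbtb46, Clec9a, Flt3, Mertk and Lyve1. A gene of the regulator list is counted but not reported here.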

Additional observations from a re-analysis of the deposited data

How the results depend on the processing

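Of the 13 results recomputed, 13 kept their direction and side of the threshold (counts of genes within 1.5 times) under limma-voom, RLE factors, upper quartile factors and at least 10 counts in every library, 10 under DESeq2 and 9 without the filter. Against 342 genes called, DESeq2 called 671, the fit without a filter 1437, and fits without 1 library 81 to 625. The 4 complement calls became 0 to 4 without 1 library (0 without mouse 583, 1 without 588, 2 without 595 or 589). The 5 other complement calls became 9 without the filter (8 lower, 1 higher) and 2 to 7 without 1 library. The 15 marker calls (13 lower, 2 higher) became 29 under DESeq2, 57 without the filter and 7 to 35 without 1 library. The fold changes without 1 library ran from -0.73 to -0.54 for C1qa, -0.69 to -0.49 for C1qb, -0.68 to -0.52 for C1qc, -0.87 to -0.57 for C4b, -0.44 to 0.38 for C3 and -0.03 to 0.10 for C1ra, which turned negative without mouse 595 (-0.0348) or 591 (-0.0152). Serping1 passed under DESeq2 (-0.33) and without the filter (-0.34). With mice 583 and 589 both left out, added after seeing the data, 67 genes, 1 complement gene (C4b, -0.92), 2 other complement genes and 6 marker genes were called, C1qa, C1qb and C1qc had -0.52, -0.46 and -0.53 without passing, and C3 reversed to -0.47. C1qc over C1qb per length moved from 0.529 to 0.849 with the longest transcript. The causes were not tested, except that fewer samples enter a fit without a library. The fit without the filter also gave no gene a variance of its own. Its prior degrees of freedom were infinite, against a median of 7.23 in the main fit, so its adjusted p-values are smaller at the same fold changes. No paired analysis was possible because each number in the labels belongs to 1 mouse of 1 genotype. Low counts limit C2 and Cfb, and 22 of the 49 other complement genes were under the count filter. Whether depth, expression or the counting of shared sequence made the counts low was not tested.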
